A study of Mus musculus with 10 samples.

Results

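Syndecans, glypicans and the genes of hyaluronan synthesis, binding and breakdown form much of the sugar-rich coat of a tumour cell. They are described here in 4T1 cells grown in collagen gels of 2 densities. The set holds 10 genes of 30142 with a named row on the array: the 4 syndecans (Sdc1, Sdc2, Sdc3 and Sdc4), the glypicans Gpc1 and Gpc4, the hyaluronan receptor Cd44, the hyaluronan synthases Has2 and Has3, and the hyaluronidase Hyal2. They were chosen by name. Each was read from the row with the highest mean over all arrays among rows annotated to that symbol alone, and all 10 lay among the 17800 genes bright enough to be tested. 4T1 is an established, metastatic mouse mammary carcinoma line. Gels were seeded with 50000 cells at a collagen density of 2 mg/mL (LD, low density) or 3.5 mg/mL (HD, high density) and kept for 5 days in RPMI medium with 10% fetal bovine serum. Total RNA went to Affymetrix MTA 1.0 arrays, 5 per group. The cells carry no label for a genetic change or drug in either group, so both groups differ by collagen density alone as far as the labels say.

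Syndecans are transmembrane proteins, and glypicans are held in the membrane by a lipid anchor. Both carry heparan sulphate, a long sulphated sugar chain that binds growth factors, chemokines and matrix proteins including collagens and fibronectin, and lets these core proteins act as co-receptors beside integrins and growth factor receptors. Hyaluronan is an unsulphated chain with no core protein. Has enzymes extrude it at the cell surface, CD44 binds it, and hyaluronidases cut it. In mammary epithelium and its tumours, syndecan-1 and CD44 are among the best studied of these molecules.

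All values are log2 signals made with RMA, a method that corrects for background, brings the arrays to 1 distribution and combines each feature's probes. The deposited values did not share 1 distribution over all rows, as quantile normalization of them still changed results given below. Signals are not comparable between genes. Differences are HD minus LD, tested with limma and called at a Benjamini-Hochberg adjusted p under 0.05 over all 17800 genes. The labels do not say whether a group's arrays stem from separate cultures. The p-values therefore reflect only the spread among these arrays, and that spread may be technical. The number of arrays limits the precision. Control rows on these arrays differed between groups. The negative control rows had a median of 5.67 ± 0.052 (SD, n = 5) on LD arrays and 5.42 ± 0.12 on HD arrays. The background rows went the other way, with 3.47 ± 0.055 on LD arrays and 3.63 ± 0.057 on HD arrays. The epithelial identity of the cells was visible in both groups, with all 9 epithelial markers listed above the floor for testing and a list mean of 10.31 to 10.35 on LD arrays and 9.97 to 10.10 on HD arrays. Of these, 5 were called lower in HD and none higher, against 19.5% and 31.4% of all tested genes. Cldn4, a tight junction claudin, fell by 1.09, Krt19, a keratin, fell by 0.76 and Epcam fell by 0.60. The falls of Krt18 (-0.13) and Cdh1 (-0.105) were small. As deposited, Krt7 (-0.04), Krt8 (0.03), Cldn3 (0.05) and Cldn7 (0.02) were not called. Means over 8 leukocyte, 8 endothelial and 8 fibroblast markers were 4.90 to 4.99, 4.65 to 4.80 and 4.97 to 5.21 over the 10 arrays, below the negative control medians. Of these markers 2, 3 and 5 passed the floor, and some moved with the groups. Among the leukocyte markers Cd68, a lysosomal glycoprotein used as a macrophage marker, fell from 8.57 to 7.83, while Cd3e, a subunit of the T cell receptor complex, rose from 5.29 to 5.45 (limma adjusted p = 0.022), a call lost without LD replicate 2 or HD replicate 3. Of the 3 endothelial markers 1 rose, Tie1, from 5.63 to 5.80 (limma adjusted p = 0.0072). Of the 5 fibroblast markers 2 rose and none fell: Thy1, from 5.54 to 5.65 with no overlap, and Col3a1, from 5.65 to 5.80, which lost its call without LD replicate 1, 2 or 3 or HD replicate 3, 4 or 5. The brightest, Col1a1, stood at 6.71 in LD and 6.80 in HD and was not called. All 5 fibroblast markers were called higher after either of 2 other array scalings, as were 2 and 3 of the endothelial markers. These were quantile normalization and the same scaling on control rows. Over all tested genes the higher calls rose under them too, from 5589 to 7637 and 8778. Without LD replicate 4, 4 fibroblast and 2 endothelial markers were higher. The defining leukocyte gene Ptprc stood at 3.09 in LD and 3.14 in HD, near the background rows (3.47 and 3.63). The part of other cell types in the results was not tested. In RNA from whole gels, fewer cells of a kind and less RNA per cell cannot be told apart.

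Members of the same family moved in opposite directions. Sdc1 and Sdc3 rose and Sdc4 fell, and of the synthases Has3 rose and Has2 fell, although the Has2 call was lost without any 1 of 8 arrays. In all, 3 of the 10 genes rose and 2 fell (limma adjusted p under 0.05), against 31.4% of all tested genes higher and 19.5% lower, so the share called among the 10 genes was near that of the array as a whole (50.9%). The changes were small: the median absolute log2 change was 0.11 over the 10 genes and 0.12 over all tested genes. Signed medians were 0.04 and 0.06. Sdc1 lay wholly higher and Sdc4 wholly lower on the 5 HD arrays than on the 5 LD arrays, and the other 8 genes overlapped between groups. Non-overlap was seen for 36.7% of all tested genes, with HD above for 21.6% and with HD below for 15.1%.

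**Figure D1:**
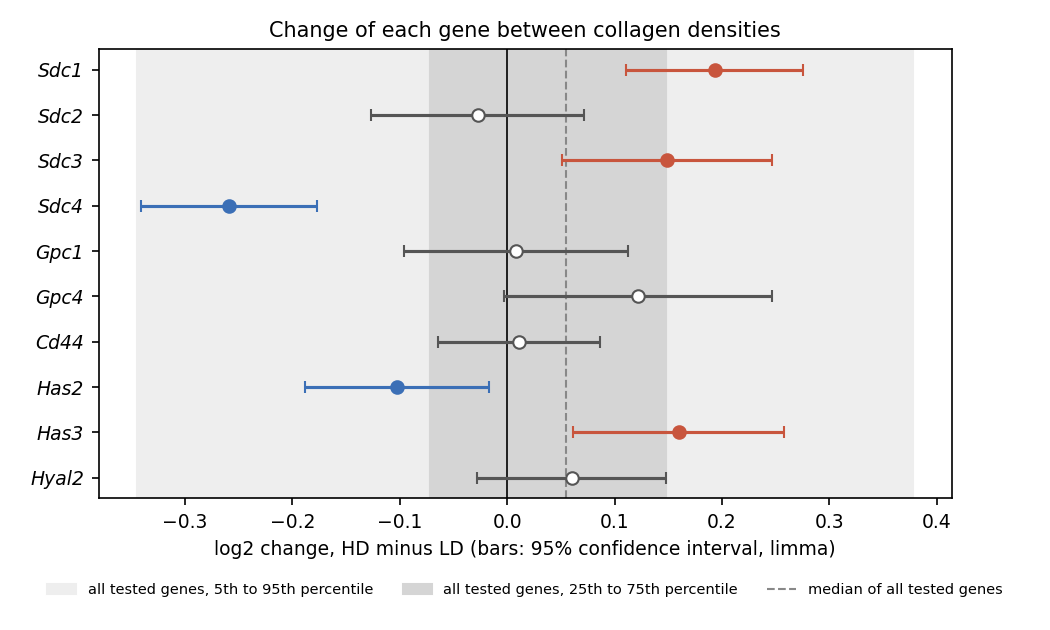
Log2 change (HD minus LD) of the 10 genes, with 95% confidence intervals from limma (5 arrays per group); filled points passed the adjusted threshold, and grey bands show the spread over all 17800 tested genes. Sdc4 at -0.26, Sdc1 at 0.19, Has3 at 0.16 and Has2 at -0.10 lie outside the band that holds the middle of the array, from -0.07 to 0.15. Sdc3 at 0.15 lies at its upper edge, while Sdc2, Gpc1 and Cd44 lie near 0.

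Sdc4 encodes syndecan-4, a widely expressed syndecan of focal adhesions that recruits protein kinase C alpha. It had the largest change of the set. Its LD signals were 10.60, 10.63, 10.60, 10.62 and 10.66, and its HD signals were 10.32, 10.26, 10.43, 10.40 and 10.40. Every HD array lay below every LD array. The fall was 0.26 on the log2 scale, or 1.20-fold, from 10.62 ± 0.024 (SD, n = 5) to 10.36 ± 0.067 (SE of the change 0.038, limma adjusted p = 7.5e-05). By absolute size it stood at percentile 80.5 of all tested genes.

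Sdc1 encodes syndecan-1, the main syndecan of epithelial cells. Signals were 8.26, 8.25, 8.26, 8.26 and 8.31 on the LD arrays and 8.38, 8.53, 8.53, 8.45 and 8.40 on the HD arrays. The groups did not overlap, and the LD arrays were tightly grouped (SD 0.023). Sdc1 rose by 0.19, or 1.14-fold, from 8.27 to 8.46 ± 0.069 (SD, n = 5; limma adjusted p = 8.6e-04). Sdc3, best known from neurons and the largest syndecan protein, had LD signals of 8.06, 7.95, 7.95, 8.01 and 7.94 and HD signals of 7.99, 8.20, 8.22, 8.10 and 8.14. Here HD replicate 1 lay among the LD arrays and the other 4 HD arrays lay above them. Sdc3 rose by 0.15, or 1.11-fold (SE 0.046, limma adjusted p = 0.015). Sdc2, a syndecan typical of mesenchymal cells, ran from 9.85 to 10.03 in LD and from 9.80 to 9.98 in HD, with a difference of -0.03 (95% interval -0.13 to 0.07) that did not pass the test (limma adjusted p = 0.64).

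**Figure D2:**
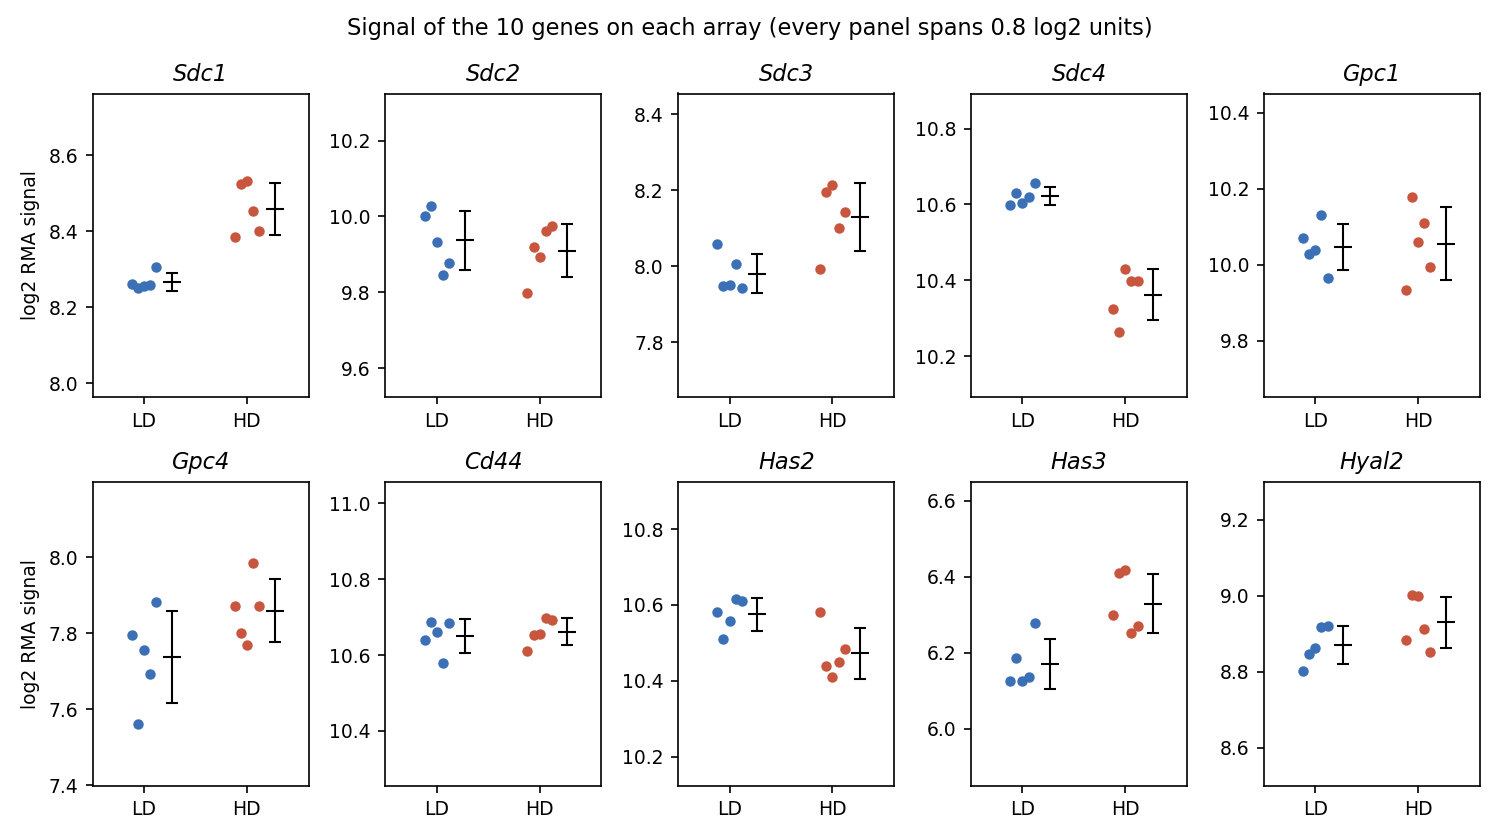
Log2 RMA signal of each gene on the 5 LD (blue) and 5 HD (red) arrays, with the mean and SD beside the points; all panels span the same number of log2 units around their own centre. Sdc1 and Sdc4 separate the groups fully, whereas HD replicate 1, the leftmost HD point, lies within the LD range for Sdc3 (7.99) and Has2 (10.58).

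The stretches upstream of the syndecan genes that changed are shown because 2 of them rose and 1 fell. They are the 250 bases before the annotated start, 5′ to 3′ on the gene's strand, from RefSeq (GRCm38.p6), where 6 of the 10 genes had an entry. Capitals mark the GC box GGGCGG on either strand, the site bound by Sp1-type factors. The Sdc1 stretch is chr12:8771146-8771395 (plus strand), that of Sdc3 chr4:130792287-130792536 (plus strand) and that of Sdc4 chr2:164443189-164443438 (minus strand).
Sdc1 (rose): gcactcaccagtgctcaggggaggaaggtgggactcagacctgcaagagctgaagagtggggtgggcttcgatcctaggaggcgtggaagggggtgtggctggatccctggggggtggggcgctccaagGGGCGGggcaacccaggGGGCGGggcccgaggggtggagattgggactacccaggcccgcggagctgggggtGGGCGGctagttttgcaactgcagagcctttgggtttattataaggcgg
Sdc3 (rose): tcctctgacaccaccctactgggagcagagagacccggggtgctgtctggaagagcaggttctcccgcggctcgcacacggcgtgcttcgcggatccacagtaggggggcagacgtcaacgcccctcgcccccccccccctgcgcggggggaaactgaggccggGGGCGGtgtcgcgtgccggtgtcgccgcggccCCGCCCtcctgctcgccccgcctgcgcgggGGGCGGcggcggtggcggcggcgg
Sdc4 (fell): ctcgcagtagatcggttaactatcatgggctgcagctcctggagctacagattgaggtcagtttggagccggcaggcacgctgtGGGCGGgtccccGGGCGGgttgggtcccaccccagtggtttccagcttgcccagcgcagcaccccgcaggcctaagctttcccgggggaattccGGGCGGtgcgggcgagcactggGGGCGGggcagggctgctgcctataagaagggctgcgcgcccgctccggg

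All 3 stretches were richer in G and C than the median promoter. GC content was 66.0% for Sdc1, 76.4% for Sdc3 and 68.0% for Sdc4, against a median of 52.4% over 32851 promoters of the same length. GC boxes numbered 3, 3 and 4, and 32.7% of all promoters held at least 1. The core letters bound by hypoxia-inducible factors, ACGTG or GCGTG on either strand, occurred 1, 2 and 1 times, and 38.6% of all promoters held them. The NF-kappaB consensus matched once in Sdc1 (bases 134 to 125 before the start) and once in Sdc4 (bases 82 to 73, directly before a GC box) and not in Sdc3, with a match in 7.3% of all promoters. The E-box letters CANNTG were found only in Sdc1 among the 3 (66.2% of all promoters). Neither TATAAA (12.4%) nor the AP-1 letters TGANTCA (6.7%) were in any of the 3 windows. These matches are letters in a window and no measure of binding.

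Whether family members responded differently was tested on the difference of their log2 signals within each array, for 8 pairs, with two-sided exact permutation over arrays and Benjamini-Hochberg adjustment over the pairs. Sdc4 differed from all 3 other syndecans. The difference of Sdc1 minus Sdc4 grew by 0.45 ± 0.045 (SE) from LD to HD, that of Sdc3 minus Sdc4 by 0.41 ± 0.055 and that of Sdc2 minus Sdc4 by 0.23 ± 0.053. In each of these 3 pairs the groups did not overlap, and the exact permutation p was 0.0079, the smallest that 5 against 5 arrays can give (adjusted 0.016). Sdc1 and Sdc3 each differed from Sdc2, by 0.22 and 0.18 (exact permutation p = 0.016 for both, adjusted 0.021). Between Sdc1 and Sdc3 the response differed by 0.04 ± 0.035 (SE, exact permutation p = 0.23), and a difference was not shown. The synthases differed as well: Has2 minus Has3 dropped by 0.26 ± 0.065 (SE, exact permutation p = 0.0079, adjusted 0.016), with no overlap. Gpc1 and Gpc4 did not pass (-0.11 ± 0.091 SE, exact permutation p = 0.21), except when arrays were scaled on their control rows (-0.31, adjusted exact permutation p = 0.018). A within-array difference shows unequal change, not which of the genes moved. The share of other gene pairs that differ in this way was not computed, and 50.9% of all tested genes were called. The pair results therefore do not set these families apart from other genes.

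**Figure D3:**
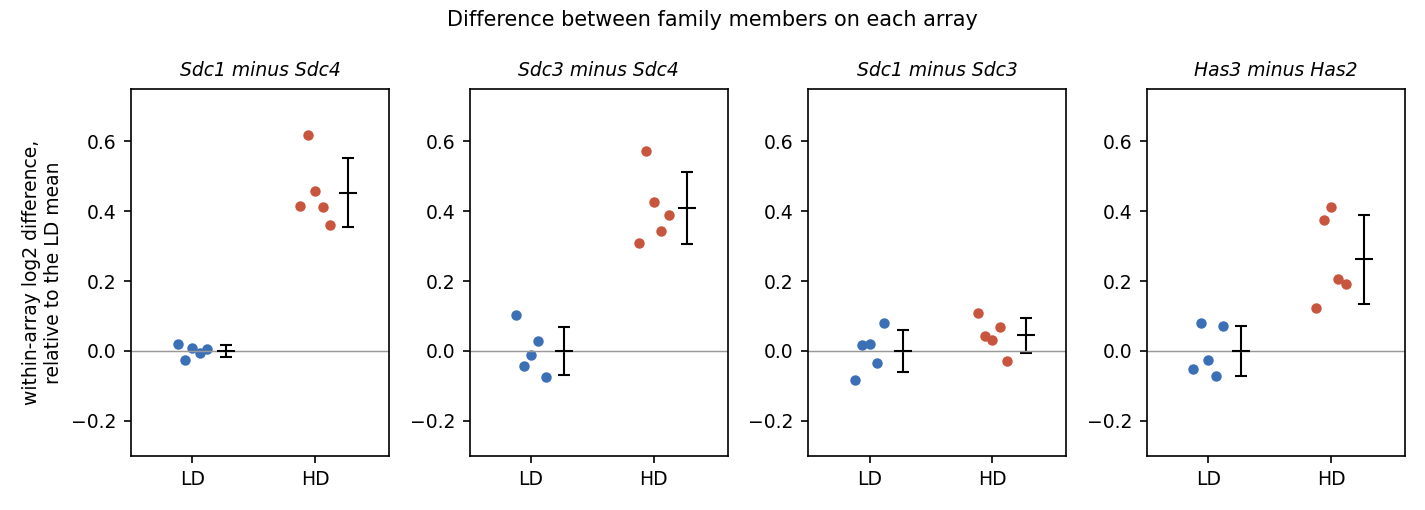
Within-array log2 difference between 2 genes of a family, set relative to the LD mean of that pair, for each LD (blue) and HD (red) array with mean and SD. The 5 HD arrays lie above the 5 LD arrays for Sdc1 minus Sdc4, Sdc3 minus Sdc4 and Has3 minus Has2, and the groups overlap for Sdc1 minus Sdc3.

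The glypicans gave no call. Gpc1, a glypican raised in several kinds of carcinoma, ran from 9.97 to 10.13 in LD and from 9.93 to 10.18 in HD, a difference of 0.0082 with a 95% interval of -0.10 to 0.11 (limma adjusted p = 0.90). Gpc4, which carries heparan sulphate for growth factors such as FGFs and Wnts, ran from 7.56 to 7.88 in LD and from 7.77 to 7.99 in HD. Its difference of 0.12 (95% interval -0.0028 to 0.25) did not pass (limma adjusted p = 0.093). LD replicate 5, at 7.88, was the highest LD array, and without it Gpc4 passed at 0.16 (limma adjusted p = 0.035). A dimmer second row of Gpc4 stood at 6.15 in both groups, with a difference of -0.0058. The 2 rows of this gene thus gave different values, and the transcripts that each covers are not given in the sources used.

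RNA signals of the 2 hyaluronan synthases of the set moved in opposite directions, with a narrow call for Has2. Hyaluronan itself was not measured. Has2, the synthase most studied in mesenchyme and in tumour invasion, had signals of 10.58, 10.51, 10.56, 10.61 and 10.61 on the LD arrays. On the HD arrays it had 10.58, 10.44, 10.41, 10.45 and 10.48. HD replicate 1 lay within the LD range and the other 4 HD arrays lay below all LD arrays. The fall of 0.10, or 1.07-fold, passed narrowly (SE 0.040, limma adjusted p = 0.046). The call held without LD replicate 2 or HD replicate 1, and was lost without any 1 of the other 8 arrays (LD replicates 1, 3, 4 and 5, and HD replicates 2 to 5), at adjusted p of 0.064 to 0.102 in limma. With a block for the replicate number the adjusted p was 0.052. Over the arrays left out in turn the change stayed between -0.13 and -0.09.

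Has3, which makes shorter hyaluronan chains and is expressed in epithelia, had LD signals of 6.12, 6.19, 6.13, 6.14 and 6.28 and HD signals of 6.30, 6.41, 6.42, 6.25 and 6.27. LD replicate 5 overlapped the lower HD arrays and the other 4 LD arrays lay below all of them. Has3 rose by 0.16, or 1.12-fold (SE 0.046, limma adjusted p = 0.010), and it remained called without any single array (adjusted p of 0.0044 to 0.028). Its signal lay not far above the negative control medians, which limits its fold. The third synthase gene, Has1, not a member of the set, stood at 5.86 in LD and 5.66 in HD, also near the negative control medians. It fell by 0.20 (limma adjusted p = 0.0039), but the difference was 0.03 and not called after control-row scaling.

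Cd44, whose product is the principal hyaluronan receptor and a marker of mesenchymal and stem-like carcinoma cells, gave no call. Signals ran from 10.58 to 10.69 in LD and from 10.61 to 10.70 in HD. The difference was 0.01 with a 95% interval of -0.06 to 0.09 (limma adjusted p = 0.81). A single row covered the gene, and its splice variants were not resolved. Hyal2, a lipid-anchored hyaluronidase that cuts long chains at the cell surface, ran from 8.80 to 8.92 in LD and from 8.85 to 9.0 in HD, a difference of 0.06 that did not pass (limma adjusted p = 0.23).

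The direction of the bright, near-level genes depended on how arrays were scaled. HD replicates 2 and 3 had the lowest negative control medians (5.34 and 5.26, against 5.42 to 5.58 on the other HD arrays and 5.61 to 5.75 on LD arrays). The same 2 arrays had the highest signals of Sdc1, Sdc3, Has3 and Hyal2 and the lowest of Has2. Sdc2, Sdc4, Gpc1, Gpc4 and Cd44 did not have their 2 highest or 2 lowest signals on these 2 arrays. Among the HD arrays, Sdc4 was lowest on replicate 2 (10.26) and highest on replicate 3 (10.43). Gpc4 had its lowest HD signals on both (7.80 and 7.77). When each array was instead scaled linearly on its negative and positive control rows, Sdc1 (0.20), Sdc3 (0.18) and Has3 (0.35) were still called higher and Sdc4 (-0.43) and Has2 (-0.28) lower. Cd44 then changed sign and was called lower (-0.17, limma adjusted p = 0.0064), as was Gpc1 (-0.13, adjusted p = 0.037), and Sdc2 was called lower (-0.15, adjusted p = 0.024). Gpc4 was called higher (0.18, adjusted p = 0.017). Quantile normalization of the deposited values gave the same calls as the main values plus Gpc4 (0.18, limma adjusted p = 0.011), and turned the uncalled differences of Gpc1 and Cd44 to -0.03. All 8 pair differences kept their sign under both scalings.

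**Figure D4:**
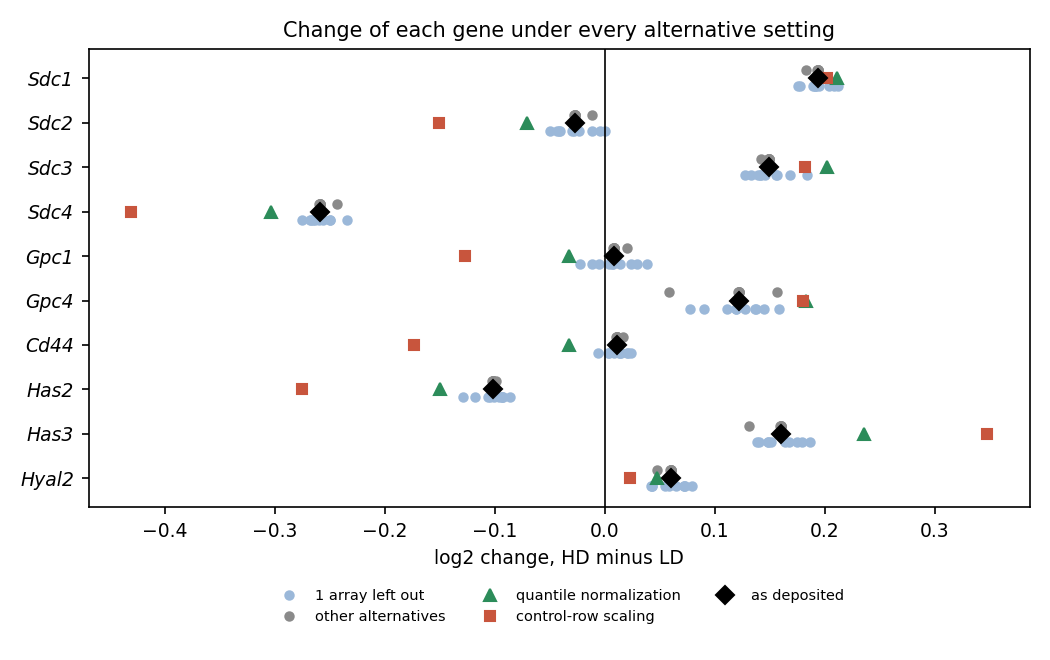
Log2 change (HD minus LD) of each gene as deposited (black diamond) and under each alternative: 1 array left out (pale blue), 2 other scalings (green, red) and the remaining alternatives (grey). Sdc1 and Sdc3 stay between 0.13 and 0.21, Sdc4 stays at or below -0.23, and Gpc1 and Cd44 lie on both sides of 0.

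Other genes of the pathway were read from lists chosen by function, by counts against the array-wide shares given above. Those shares hold for the deposited values. After quantile normalization 7637 of all tested genes were higher and 2955 lower (59.5% called). After control-row scaling 8778 were higher and 3396 lower (68.4% called). List counts under these scalings are to be read against those array-wide counts. Of 9 tested genes that trim or break down heparan sulphate, 3 rose and 3 fell (median log2 change -0.05). Sulf2, an extracellular sulphatase that removes 6-O-sulphate from the chains, rose by 0.35, from 7.58 to 7.93, and the lysosomal glucuronidase Gusb rose by 0.28. Idua, the lysosomal iduronidase, fell by 0.53, from 7.68 to 7.15, and the heparanase Hpse fell by 0.29 (not called after control-row scaling, -0.08). After control-row scaling 4 genes of this list were higher and 1 lower. As deposited, 3 of the 9 genes lay wholly higher and 3 wholly lower on the HD arrays, against 21.6% and 15.1% of all tested genes. Sulf2, Gusb, Idua and Hpse are among these, and they were named for having the largest changes.

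Enzymes that build the chains were called in both directions. In the list for the linker and heparan sulphate, 5 of 19 tested genes rose and 2 fell (median 0.07). Hs3st1, a 3-O-sulphotransferase, rose by 0.25 and Extl3, which starts the chain, by 0.18. Ndst3, an N-deacetylase and sulphotransferase, fell by 0.20 and Ext1, a subunit of the chain polymerase, by 0.13. Without HD replicate 2 the count of lower genes was 4. After quantile normalization 8 were higher and 2 lower. After control-row scaling 11 were higher and 1 lower, with Hs3st1 at 0.41, Ext1 at -0.20 and Ndst3 not called (-0.07). Higher calls also rose array-wide under both scalings. In the chondroitin and dermatan sulphate list, 5 of 12 rose and 1 fell (median 0.10). Chpf, the chondroitin polymerising factor, rose by 0.38, from 7.30 to 7.68, and the epimerase Dse by 0.25. The 1 lower gene, Csgalnact1 (-0.10), kept its call without LD replicate 1 or HD replicate 1, and lost it without any 1 of the other 8 arrays (LD and HD replicates 2 to 5), at limma adjusted p of 0.057 to 0.098. It was not called after quantile normalization (-0.04) or control-row scaling (-0.03, limma adjusted p = 0.58) either, and both gave 7 higher and 0 lower genes in this list.

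Genes for the supply of sugar and sulphate donors went both ways, with 3 of 13 higher and 3 lower (median -0.02). Gnpnat1, an acetyltransferase on the route to UDP-N-acetylglucosamine, had the largest rise of any chain-related gene listed, 0.55 (1.47-fold, from 7.32 to 7.88). Slc35d1, a transporter of UDP-sugars into the secretory pathway, rose by 0.43. The related transporter Slc35d2 fell by 0.32 (not called after control-row scaling, -0.12), and Gfpt1, the entry enzyme of the hexosamine pathway, fell by 0.22. Without HD replicate 1 the count of lower genes was 5, and after quantile normalization 5 were higher and 4 lower, with the median at 0.03.

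Of 6 other tested heparan sulphate core proteins of the cell surface and basement membrane, 4 fell and 2 rose (median -0.16). Tgfbr3, or betaglycan, fell by 0.29 (-0.14 and not called after control-row scaling), and Agrn, or agrin, by 0.24, followed by Hspg2 (perlecan) at -0.20 (-0.33 after control-row scaling) and Col18a1 at -0.12, which lost its call without LD replicate 1, 3 or 4 or HD replicate 1 or 5 (limma adjusted p of 0.061 to 0.077). The higher genes, Gpc2 and Gpc6, stood at 5.50 and 5.40 in LD and 5.66 and 5.49 in HD, at the level of the negative control rows, with changes of 0.16 and 0.09 as deposited and 0.41 and 0.35 after control-row scaling. The call of Gpc2 was lost without LD replicate 1 (limma adjusted p = 0.056). That of Gpc6 held only without LD replicate 4 or HD replicate 1 among the arrays left out, and was lost without LD replicates 1, 2, 3 or 5 or HD replicates 2, 3, 4 or 5 (adjusted p of 0.055 to 0.115, limma).

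Among proteins that cut these molecules from the surface and their inhibitors, 5 of 13 rose and 4 fell (median 0.10). Mmp9, a gelatinase that can shed syndecans and binds CD44, fell by 1.10, from 11.43 to 10.33, the largest change in any of the lists. Mmp14, a membrane-bound collagenase that cleaves syndecan-1 and CD44, fell by 0.21, or 0.45 after control-row scaling. Adam17, a membrane-bound sheddase, fell by 0.16, and Adam10 differed by -0.03 and was not called, except after control-row scaling (-0.18, limma adjusted p = 0.018). The inhibitor Timp1 rose by 0.35 and the proprotein convertase Pcsk6 by 0.32 (0.51 after control-row scaling). Counts of higher genes were 3 without LD replicate 1, 2 or 3 or HD replicate 3 or 4, and 7 without LD replicate 4. After control-row scaling 6 genes were higher and 6 lower, with a median of -0.03.

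Partners inside the cell went both ways, with 6 of 15 higher and 4 lower (median 0.03). Prkca, the kinase that syndecan-4 recruits, fell by 0.38, from 9.61 ± 0.044 (SD, n = 5) to 9.24 ± 0.028. Ank3, an ankyrin of the family that binds CD44, fell by 0.46, and Msn (moesin), which links CD44 to actin, by 0.25 (0.57 after control-row scaling). Its relative Ezr (ezrin) rose by 0.18 as deposited, but was at -0.07 and not called after control-row scaling. Gipc1 and Sdcbp, PDZ proteins that bind the tails of syndecans, rose by 0.23 and 0.22 (0.15 and 0.14 after control-row scaling). Esrp1, an epithelial splicing factor of CD44, fell by 0.19, and Esrp2 differed by 0.05 and was not called, except after quantile normalization (0.12) and control-row scaling (0.13). After control-row scaling 3 of this list were higher and 6 lower, with a median of -0.04.

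Of 13 other tested genes of hyaluronan turnover and binding, 2 rose and 5 fell (median 0.06). Hmmr, a hyaluronan-binding protein that also serves the mitotic spindle, rose by 0.21 (0.14 after control-row scaling). Stab1, a scavenger receptor for hyaluronan, fell by 0.42 and Tlr4, a receptor of innate immunity that hyaluronan fragments can engage, by 0.32. Cemip2, a surface hyaluronidase, fell by 0.10, a call lost after quantile normalization (-0.06) and control-row scaling (-0.07) and without LD replicate 1, LD replicate 4 or HD replicate 2. The other higher gene, Acan, stood at 5.19 and 5.34, below the negative control rows, and lost its call without LD replicate 1 or 2 or HD replicate 3 or 5 (limma adjusted p of 0.060 to 0.079). Counts of higher genes ranged widely in this list of dim genes, with 4 without LD replicate 4 or HD replicate 2, 5 without HD replicate 1, 1 without LD replicate 1 or 2 or HD replicate 3, and 7 and 8 after quantile normalization and control-row scaling. Lower genes numbered 3 without LD replicate 1 or LD replicate 4 and after either scaling. Stab1 is also expressed by macrophages and endothelium, and the levels of their markers are given above. Their part in its fall was not tested.

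**Figure D5:**
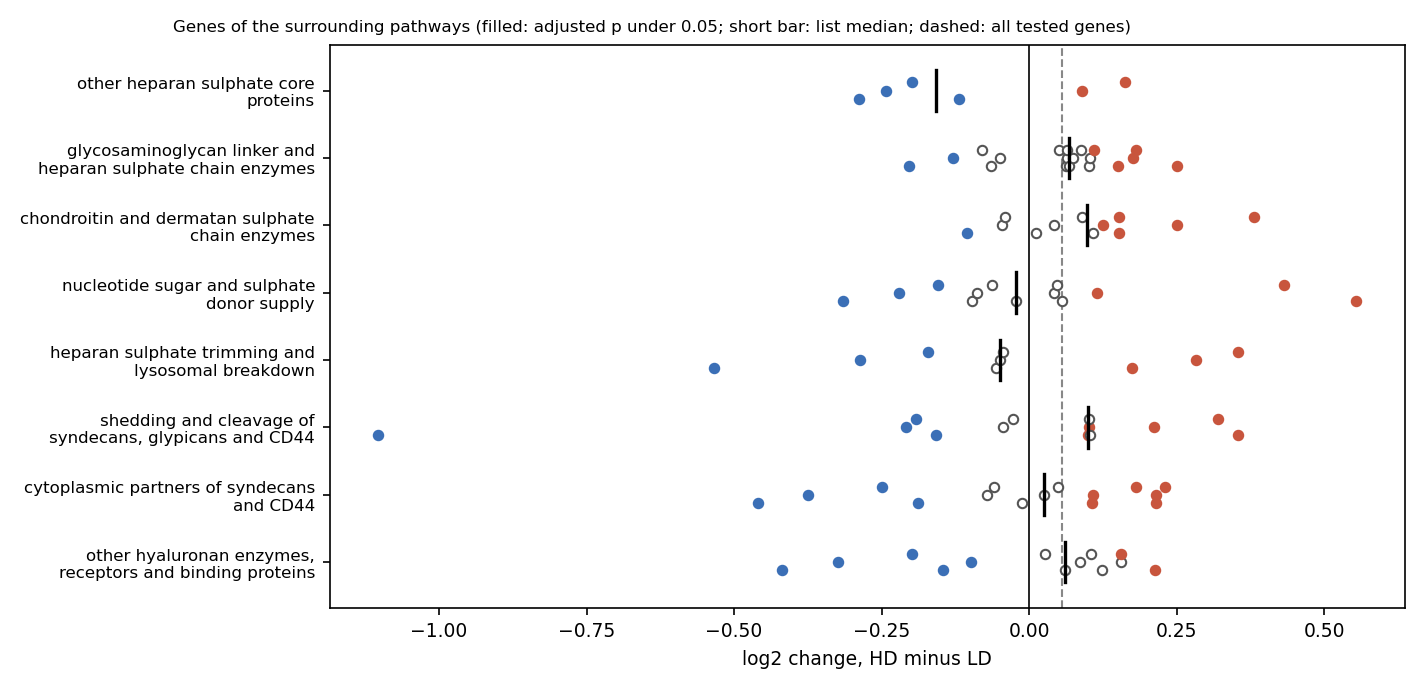
Log2 change (HD minus LD) of every tested gene in 8 lists of related function, 1 point per gene, filled red (higher) or blue (lower) where the limma adjusted p was under 0.05; the short bar is the list median and the dashed line the median of all tested genes (0.06). Mmp9 at -1.10 and Gnpnat1 at 0.55 are the extremes, and as deposited each list holds calls in both directions (the chondroitin list holds 0 lower calls after quantile normalization or control-row scaling).

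Array by array, the genes most like Sdc4 among all tested were Ypel1, Lonrf1 and Bcl11a (Pearson r of 0.97, 0.97 and 0.96 over the 10 arrays), with changes of -0.30, -0.21 and -0.38. For Sdc1 they were Ddx54, Lrfn4 and Mrpl14 (r of 0.99, 0.99 and 0.98), with changes of 0.23, 0.29 and 0.22. The points share 2 groups and their arrays, and 1158 genes exceeded 0.9 with Sdc1 and 386 with Sdc4. After control-row scaling Lonrf1 was not called (-0.06) and Bcl11a was at -0.24.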

How the data were processed

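The deposited log2 values, 72688 rows on 10 arrays, came from RMA as run by the authors, per the submitters' processing notes. The software, annotation and build were not given in the sources used here. The log2 scale was read from the values. RMA compresses folds, and no array-level depth or detection call was used. Gene names came from the platform annotation, in which 30604 rows named 1 symbol after repeats were removed, and 827 symbols were updated through gene IDs in RefSeq (GRCm38.p6). A gene was its row with the highest mean, tested if that mean exceeded 5.24, the median over all rows. HD and LD (5 arrays each) were compared with lmFit and eBayes in limma 3.58.1 (R 4.3.3), two-sided, and the code was tested on simulated data. Alternatives were a replicate block, 3 other scalings, other floors, averaged rows, other variance models, array weights and leaving out each array. The pair tests under 2 scalings were added after the data were seen. The members, lists and tests were chosen with earlier results of these data known. Named genes were the members, up to 2 called genes per list and direction with the largest change, and the 3 genes most correlated with the most changed member in each direction. The further list genes Has1, Hspg2, Col18a1, Adam17, Adam10, Msn, Ezr, Esrp1, Esrp2, Cemip2, Col1a1 and Epcam, and the marker Ptprc, were named after their values were seen. So were the epithelial markers Krt18, Cdh1, Krt7, Krt8, Cldn3 and Cldn7.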

Additional observations from a re-analysis of the deposited data

Results flagged for a closer look

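Within a group of 5 arrays, 1 value stood apart from the others among the 20 groups looked at (10 genes in LD and in HD). The LD replicate 5 signal of Sdc1 was 8.31, against 8.26 for the next highest LD array, a gap of 0.81 of the group's whole range. Chance picks out about 1 in 20 such groups. Without that array Sdc1 was still called higher.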

How the results depend on the processing

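Sdc1, Sdc3 and Sdc4 kept their direction and call under all 19 alternatives run, and Has3 under the 18 that could test it (it lies below the floor at the 75th percentile). The lower calls were less stable because of Has2. With a replicate block 1 of the 10 genes was called lower, and the same count of 1 was found after median centring and with no floor, with Has2 at limma adjusted p of 0.052, 0.060 and 0.077. With control-row scaling 5 were lower, and 1 to 2 when each array was left out in turn. Same-numbered arrays deviated from their group means with correlations of -0.09 to 0.22, so the numbers were not taken as pairs, and the block changed no other call among the 10 genes. Over all tested genes, 5589 were higher and 3467 lower as deposited (61.7% of calls higher), and 8778 and 3396 after control-row scaling (72.1% higher), while quantile normalization gave 7637 and 2955 (72.1% higher). The median change of all tested genes was 0.06 as deposited and 0.13 after control-row scaling. Differences near 0 changed sign. Gpc1 was -0.0325 after quantile normalization, -0.1273 after control-row scaling and -0.0226 to 0.0384 with 1 array left out. Cd44 was -0.0327, -0.1737 and -0.0067 to 0.024 under the same settings, and Sdc2 was -0.0502 to 0.0004 with 1 array left out. Where scaling changed a call, the cause was not tested. Signal near the negative control rows limits Has1, Has3, Gpc2, Gpc6, Acan and the markers Cd3e, Tie1, Thy1 and Col3a1. Hpse, Pcsk6, Slc35d1 and Slc35d2 had LD signals of 6.21, 6.11, 6.31 and 6.35, near that of Has3 (6.17). The same limit holds for them.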
